A study of Mus musculus with 6 samples.

Results

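The genes described here are 10 genes of the activin and Nodal pathway, among 19938 genes that could be named on the arrays. They are the subunit and ligand genes Inhbb, Inhba, Nodal and Gdf3, the co-receptor gene Tdgf1, the receptor gene Acvr2b, the antagonist genes Lefty1, Lefty2 and Fst, and the feedback inhibitor gene Smad7. They were chosen by gene symbol, with the brightest probe set to stand for each gene; each of the 10 had 1 probe set, so the level over the 6 arrays decided no row. The fall of Inhbb was already known when the group was put together. The values of the comparisons with control are therefore a description, and the tests beside them are no independent support.

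E14 mouse embryonic stem cells, grown on adherent plates, were transfected with siRNA, and their total RNA was hybridised to expression arrays. Each of 3 groups had 2 arrays: control cells given a pool of non-specific siRNAs, cells given siRNA 1 against p/CIP, and cells given siRNA 2 against p/CIP. p/CIP is a coactivator of nuclear receptors encoded by Ncoa3, and the series asked which transcripts change when it is lowered. Nothing in the labels tells whether the arrays of a group stem from separate cultures. P-values then measure the spread between these samples alone, and that spread may be technical.

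Activins are dimers of inhibin beta subunits. They bind type II receptors such as ACVR2B, which activate type I receptors that phosphorylate SMAD2 and SMAD3. Nodal and its relatives use the same receptors but need the co-receptor Cripto, the product of Tdgf1. Lefty proteins block Nodal at the receptors, follistatin (Fst) binds and neutralises activins, and SMAD7 blocks the type I receptors from inside the cell. LEFTY1, LEFTY2 and SMAD7 are themselves induced by this signal, and in the early embryo the pathway supports the epiblast and patterns the primitive streak.

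All 10 stem cell markers were measured, Pou5f1, Sox2, Nanog and Zfp42 among them, and all 10 lay above the median gene level of 7.81 (log2) in every group, the lowest group mean of any being 10.36. In control cells, 3 of 10 markers of extraembryonic endoderm and 2 of 8 of fibroblast feeders also lay above that level. So did 4 of 6 measured markers of trophoblast and 5 of 6 of neural cells. The endoderm count was 5 with either siRNA. The feeder count was 4 with siRNA 1 and 3 with siRNA 2, and the trophoblast and neural counts were unchanged. The target Ncoa3 fell to 35.6% of control over both siRNAs (limma adjusted p = 0.0287), a log2 change of -1.49 with a standard error of 0.0964. Array siRNA 1 replicate 2 stood apart, with an interquartile range of 3.13 (log2) against 3.33 to 3.45 on the other arrays. Values that it moved most are given with and without it.

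Inhbb, the gene of the activin beta-B subunit, fell, and of the 10 genes it was the one called over both siRNAs. It read 8.73 and 8.42 (log2) in control cells, 7.28 and 7.33 after siRNA 1, and 7.45 and 7.43 after siRNA 2. All 4 knockdown arrays lay below both control arrays and the arrays of either siRNA lay closer together than the control arrays did. Its level over both siRNAs was 43.4% of control, a log2 change of -1.20 with a standard error of 0.0973 (limma adjusted p = 0.0347). With siRNA 1 it fell by 1.27 on the log2 scale (95% interval -1.54 to -1.001, limma adjusted p = 0.0452). With siRNA 2 the log2 change was -1.14 (95% interval -1.40 to -0.87), with a limma adjusted p of 0.0906, and of 0.048 with the replicate number as a block. Between the siRNAs, Inhbb differed by 0.13 (siRNA 2 minus siRNA 1, 95% interval -0.14 to 0.40, limma adjusted p = 0.773).

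With each of the 6 arrays left out in turn, Inhbb stayed below control, as it must where no knockdown array reaches the control arrays. Its change ranged from -1.36 to -1.05 over both siRNAs, -1.42 to -1.11 with siRNA 1 and -1.29 to -0.98 with siRNA 2. Without siRNA 1 replicate 2 it was -1.29 with siRNA 1. Such a fit leaves 1 array in a group, and the call of Inhbb was not kept in every such fit. Over both siRNAs, where Inhbb lost its call, so did the target Ncoa3. That does not cover the fits of siRNA 1, and nothing about Inhbb is read from these losses. Within replicate 1 the difference from control was -1.45 with siRNA 1 and -1.28 with siRNA 2. Within replicate 2 it was -1.09 and -0.99, and the signs of these differences were fixed in the same way.

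Some stem cell markers had lower values on the same arrays. Of the 10 markers, 9 had values below control over both siRNAs. The 3 markers Esrrb (-0.50), Zfp42 (-0.39) and Nanog (-0.33) lay below control without overlap, as did 10.1% of all genes. Dppa5a (0.06) lay above it without overlap, as did 8.83%. The rest overlapped control, at changes from -0.13 (Sox2) to -0.02 (Lin28a). Of the 10 markers, 0 passed the limma test and 1, Esrrb, passed with the replicate block. The sum of their linear values lay between 58960 and 60814 on the control arrays, between 54031 and 57136 with siRNA 1, and between 54983 and 56806 with siRNA 2. Of the 6 neural markers, 5 had values below control over both siRNAs, as did 9502 of all 19938 genes. They were Tubb3 (-0.32), Pax6 (-0.14), Map2 (-0.05), Sox1 (-0.01) and Neurog2 (-0.01). Tubb3 and Pax6 lay below control without overlap, and 0 of the 6 passed the limma test. Their summed linear values lay between 2249 and 2289 in control cells, between 2029 and 2075 after siRNA 1, and between 2081 and 2175 after siRNA 2. The part of either list in the Inhbb result was not tested. In bulk RNA, fewer cells that express a gene and less RNA per cell cannot be told apart.

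**Figure D1:**
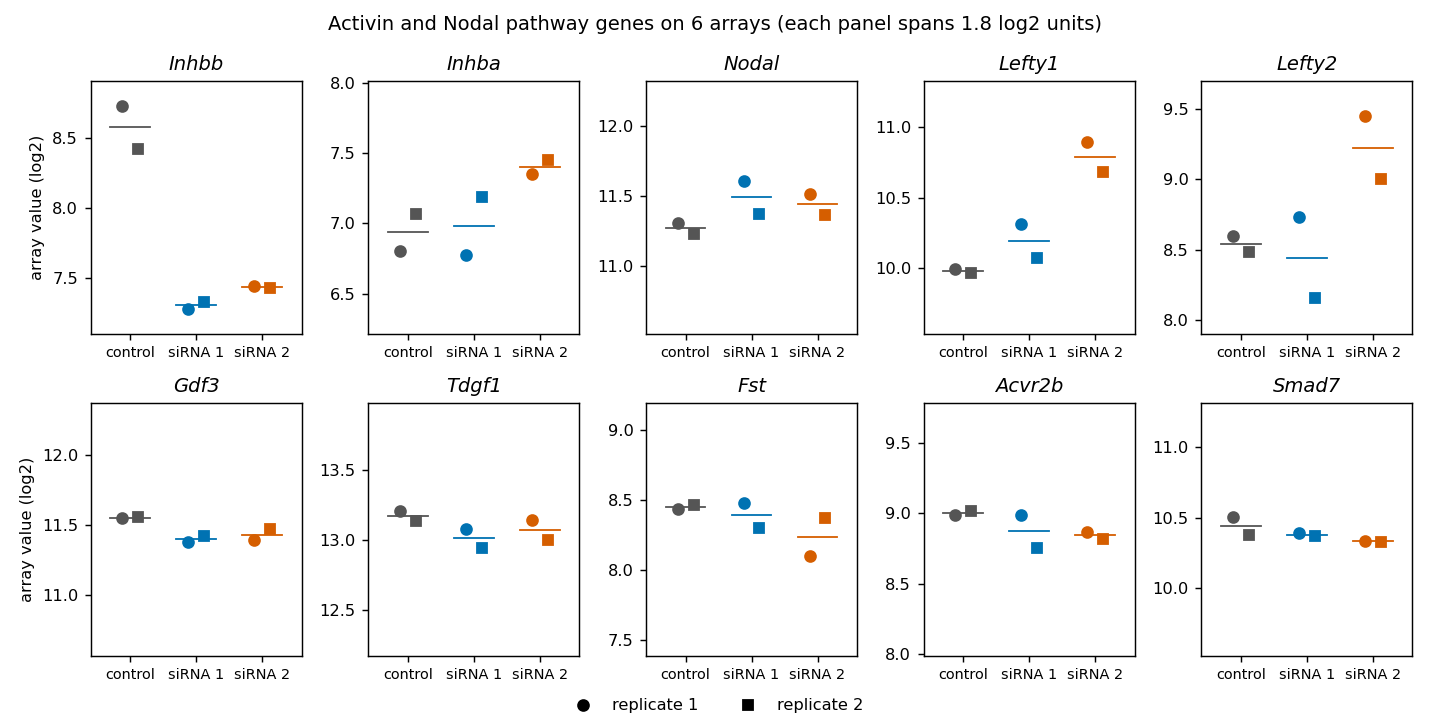
Value of each of the 10 genes (log2) on the 6 arrays, by siRNA group; circles are replicate 1, squares replicate 2, and a line marks the mean of a group. Every panel spans the same number of log2 units. Inhbb read 8.42 or more in control cells and 7.45 or less on all 4 knockdown arrays, and Lefty1 was highest on both siRNA 2 arrays, at 10.90 and 10.68.

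To show where the subunit gene that fell and its relative differ, the 250 bases before the start of each gene are given from RefSeq (GRCm38.p6), 5′ to 3′ on the strand of the gene. That of Inhbb lies on the minus strand at chr1:119422249-119422498, and that of Inhba on the plus strand at chr13:16011601-16011850. Capitals would mark a motif match.
Inhbb: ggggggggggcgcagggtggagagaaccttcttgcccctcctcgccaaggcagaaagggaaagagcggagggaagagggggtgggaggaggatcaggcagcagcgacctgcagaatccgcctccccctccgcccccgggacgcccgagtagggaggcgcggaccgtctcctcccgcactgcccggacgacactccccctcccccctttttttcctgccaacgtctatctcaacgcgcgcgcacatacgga
Inhba: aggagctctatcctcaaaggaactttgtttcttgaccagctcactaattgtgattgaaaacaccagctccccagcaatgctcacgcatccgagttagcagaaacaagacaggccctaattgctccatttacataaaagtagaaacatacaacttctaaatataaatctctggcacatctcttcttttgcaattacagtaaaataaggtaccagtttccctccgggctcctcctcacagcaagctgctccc

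G and C made up 68% of the Inhbb window and 43.2% of the Inhba window. Both strands were searched for AGGTCA, the hexamer that nuclear receptors bind, AAGGTCA, an extended form that contains it and that orphan receptors such as ESRRB bind, CAGAC, a SMAD box, TGTGNATT, a core of FOXH1 sites, and TGANTCA, the AP-1 motif. None of the 5 was found in either window, so no letter is in capitals. Over all 32851 promoter windows of this length, 14% held AGGTCA, 4.08% AAGGTCA, 42.2% CAGAC, 3.18% TGTGNATT and 6.75% TGANTCA. RefSeq windows were matched for 5 of the 10 genes, also for Nodal, Tdgf1 and Acvr2b. Of these, Tdgf1 and Acvr2b each held 1 CAGAC, starting 113 and 233 bases before the gene, and no other match was found. No match says only that these letters are not in this window.

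Inhba, which encodes the activin beta-A subunit, was called with neither siRNA. It read 6.80 and 7.07 (log2) in control cells, 6.78 and 7.19 after siRNA 1, and 7.35 and 7.45 after siRNA 2. The siRNA 1 arrays spanned the control arrays, while both siRNA 2 arrays lay above all others. The log2 change was 0.04 with siRNA 1 (95% interval -0.32 to 0.41, limma adjusted p = 0.911) and 0.47 with siRNA 2 (95% interval 0.10 to 0.83, limma adjusted p = 0.778). The value with siRNA 1 was -0.04 after quantile normalization or cyclic loess, and -0.16 without siRNA 1 replicate 2.

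Nodal, the ligand of the epiblast, read 11.31 and 11.23 (log2) in control cells, 11.61 and 11.37 after siRNA 1, and 11.52 and 11.36 after siRNA 2. All 4 knockdown arrays were above both control arrays. The log2 change over both siRNAs was 0.20 (95% interval -0.03 to 0.42, limma adjusted p = 0.61). Gdf3, a ligand of the same family that also acts through Cripto, read 11.55 (log2) on both control arrays, 11.38 and 11.42 after siRNA 1, and 11.39 and 11.47 after siRNA 2. All 4 knockdown arrays were below control, at a log2 change of -0.14 (95% interval -0.30 to 0.02, limma adjusted p = 0.618).

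The antagonist Lefty1 was high with siRNA 2. Its probe set read 9.99 and 9.96 (log2) in control cells, 10.31 and 10.07 after siRNA 1, and 10.90 and 10.68 after siRNA 2. No group overlapped another, with siRNA 1 between control and siRNA 2. The value with siRNA 2 was 1.76-fold that of control (log2 change 0.81, 95% interval 0.54 to 1.09), with a limma adjusted p of 0.183, and of 0.0484 with the replicate block. With siRNA 1 the log2 change was 0.22 (95% interval -0.06 to 0.49, limma adjusted p = 0.466), and over both siRNAs it was 0.51 (0.28 to 0.75, limma adjusted p = 0.199). Leaving out siRNA 1 replicate 2 gave 0.34 for siRNA 1, and leaving out siRNA 1 replicate 1 gave 0.092.

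Lefty2, its close relative in sequence and function, was high on the same arrays. It read 8.60 and 8.48 (log2) in control cells, 8.73 and 8.15 after siRNA 1, and 9.45 and 9.002 after siRNA 2. Both siRNA 2 arrays lay above the other 4, while the siRNA 1 arrays lay on either side of control. The log2 change was 0.68 with siRNA 2 (95% interval 0.18 to 1.19, limma adjusted p = 0.725) and -0.10 with siRNA 1 (95% interval -0.61 to 0.41, limma adjusted p = 0.846), which became 0.19 without siRNA 1 replicate 2. Lefty1 and Lefty2 are genes of closely similar sequence, and whether their probe sets cross-hybridise is not given in the sources used here.

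The difference between the siRNAs was tested directly. Lefty1 was 0.60 higher with siRNA 2 than with siRNA 1 (log2, 95% interval 0.32 to 0.87, limma unadjusted p = 0.00136, adjusted p = 0.411), and Lefty2 was 0.79 higher (0.28 to 1.29, 0.00815 and 0.573). Neither passed over all genes, and with the replicate block the adjusted p was 0.103 for Lefty1 and 0.123 for Lefty2. For both genes the siRNA 2 arrays lay above the siRNA 1 arrays, which fixes the sign within replicates. Within replicates 1 and 2 the difference was 0.58 and 0.61 for Lefty1, and 0.72 and 0.85 for Lefty2. Without siRNA 1 replicate 2 it was 0.48 for Lefty1 and 0.50 for Lefty2. Inhba differed by 0.42 (0.06 to 0.79, limma unadjusted p = 0.0298, adjusted p = 0.718).

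Summed values of trophoblast markers lay apart between the siRNAs, as did those of the neural markers given above. Those of extraembryonic endoderm and fibroblast feeders overlapped. All 6 measured trophoblast markers (of 8 listed) had lower values with siRNA 2 than with siRNA 1, 3 of them without overlap, and 0 passed the limma test; of all 19938 genes, 11583 had lower values and 20% were lower without overlap. The sum of their linear values lay between 1761 and 1781 on the control arrays, between 2209 and 2230 with siRNA 1, and between 1747 and 1866 with siRNA 2. For the 10 extraembryonic endoderm markers the sum was 2549 to 3476 in control cells, 2748 to 4540 with siRNA 1 and 2801 to 3587 with siRNA 2, the highest value being that of siRNA 1 replicate 2. For the 8 fibroblast feeder markers it was 1430 to 1543 in control cells, 1398 to 1707 with siRNA 1 and 1477 to 1613 with siRNA 2. The part of these markers in the Lefty values was not tested.

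Fst, which encodes follistatin, read 8.44 and 8.46 (log2) in control cells, 8.48 and 8.30 after siRNA 1, and 8.10 and 8.37 after siRNA 2. The siRNA 1 arrays lay on either side of control and both siRNA 2 arrays lay below it. The log2 change was -0.06 with siRNA 1 (95% interval -0.33 to 0.21, limma adjusted p = 0.829) and -0.21 with siRNA 2 (95% interval -0.49 to 0.06, limma adjusted p = 0.999). Without siRNA 1 replicate 2 the value with siRNA 1 was 0.029.

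The co-receptor, the receptor and the feedback inhibitor varied little. Tdgf1 (Cripto) lay between 12.95 and 13.21 (log2) on all 6 arrays, and its log2 change over both siRNAs was -0.13 (95% interval -0.32 to 0.06, limma adjusted p = 0.682). Acvr2b lay between 8.75 and 9.02 (change -0.14, 95% interval -0.35 to 0.06, limma adjusted p = 0.666); without siRNA 1 replicate 2 this was -0.086, and with siRNA 1 alone -0.13 became -0.012. Smad7 lay between 10.33 and 10.51 (change -0.09, 95% interval -0.25 to 0.08, limma adjusted p = 0.748). Over both siRNAs, the knockdown arrays overlapped the control arrays for all 3, and the lowest bound of the 3 intervals was -0.35.

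**Figure D2:**
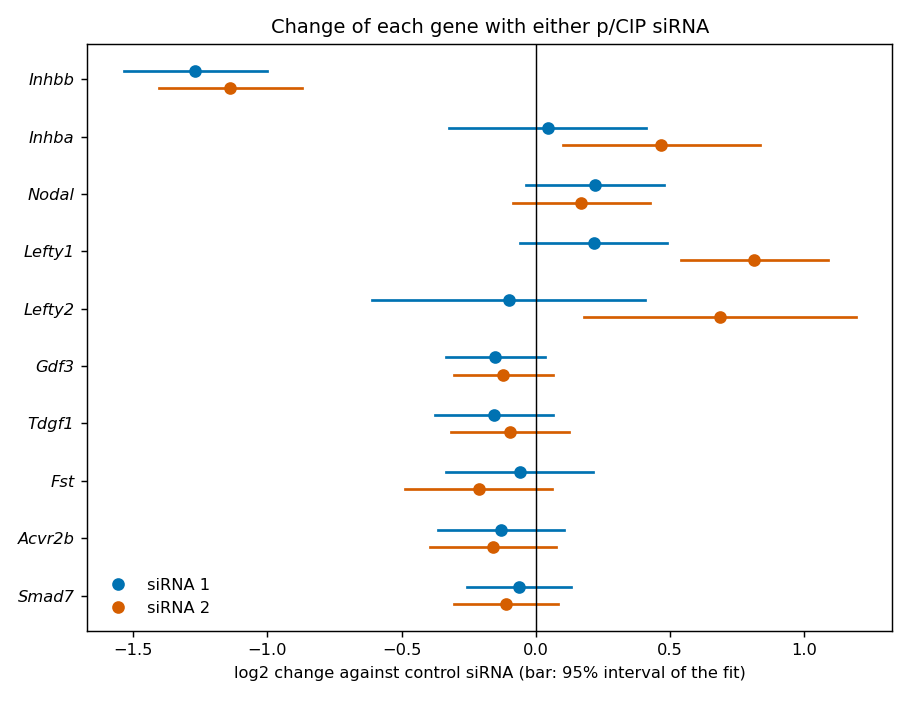
Log2 change of each of the 10 genes against control siRNA, for siRNA 1 and siRNA 2; points are the fitted changes and bars their 95% intervals, and both comparisons share the 2 control arrays. Inhbb lay at -1.27 and -1.14, while Lefty1 lay at 0.22 and 0.81 and Lefty2 at -0.10 and 0.68.

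Counted over the 10 genes, 1 (Inhbb) was called lower over both siRNAs, where 0.0702% of all genes were, and 0 higher (0% of all genes); 2 (Inhbb and Lefty1) had an unadjusted p under 0.05 (8.72% of all genes), and the replicate block called 1 (0.341%). With siRNA 1 again 1, Inhbb, was called lower (0.0702%), 1 had an unadjusted p under 0.05 (12.1%) and the block called 1 (1.21%). The fall of Inhbb was known when the genes were chosen, so nothing is read from these counts. With siRNA 2, limma called 0 of the 10, and 0% of all genes, and 4 (Inhbb, Inhba, Lefty1 and Lefty2) had an unadjusted p under 0.05 (5.25%). An unmoderated linear model called 0 of the 10 and 0 of all genes. With the replicate block 2 were called with siRNA 2, Inhbb lower and Lefty1 higher, against 0.13% of all genes. Between the siRNAs limma called 0 of the 10 and 0% of all genes, and 3 (Inhba, Lefty1 and Lefty2) had an unadjusted p under 0.05 (6.9%). The replicate block called 0 (0.0752%), and the unmoderated model 0 of the 10 and 0 of all genes.

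Over both siRNAs, the knockdown and control arrays did not overlap for 4 of the 10 genes: Inhbb and Gdf3 were lower, as were 10.1% of all genes, and Nodal and Lefty1 higher, as were 8.83%. With siRNA 1, Inhbb, Gdf3 and Tdgf1 lay below control without overlap (20.5% of all genes) and Nodal and Lefty1 above it (22.9%). With siRNA 2, 5 of the 10 lay below (Inhbb, Gdf3, Fst, Acvr2b and Smad7; 19.8% of all genes) and 4 above (Inhba, Nodal, Lefty1 and Lefty2; 16%). The siRNA 2 arrays lay above the siRNA 1 arrays for 4 (Inhbb, Inhba, Lefty1 and Lefty2; 15.2% of all genes) and below them for 1, Smad7 (20%). The median log2 change over the 10 genes was -0.11 over both siRNAs, -0.08 with siRNA 1, -0.10 with siRNA 2 and 0.04 between the siRNAs, where the median over all genes was 0.01, 0.02, -0.01 and -0.03.

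Of 57 other genes of the pathway, 53 were measured by name, and limma called 0 of them in any of the 4 contrasts. The unmoderated model also called 0 of them, and 0 of all genes. Of the 53, 9 had an unadjusted p under 0.05 over both siRNAs (8.72% of all genes), 10 with siRNA 1 (12.1%), 9 with siRNA 2 (5.25%) and 5 between the siRNAs (6.9%). Over both siRNAs 25 had values below control and 28 above (median 0.01). The replicate block called 2, both with siRNA 1, where it called 1.21% of all genes: Furin was higher and Tgfb2 was lower. Furin encodes a protease that cuts Nodal and activin precursors into active ligands. It read 9.49 and 9.59 (log2) in control cells, 9.96 and 10.23 after siRNA 1, and 9.83 and 10.02 after siRNA 2, so that all 4 knockdown arrays lay above control. Its log2 change was 0.55 with siRNA 1 (limma adjusted p = 0.195, and 0.0391 with the block) and 0.38 with siRNA 2 (0.733). With siRNA 1 replicate 1 left out the siRNA 1 change was 0.69. Tgfb2, which encodes a TGF-beta ligand, had a log2 change of -0.56 with siRNA 1 (0.414, and 0.0344 with the block) and -0.25 with siRNA 2; it was picked out after its values were seen.

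Among the other ligands and receptors, none was called. Of 8 measured ligands 7 lay below control over both siRNAs. The ligands of smallest p were the activin beta-C gene Inhbc (-0.28, limma adjusted p = 0.461), Tgfb1 (-0.15) and the myostatin gene Mstn (0.19). Of 9 receptors and co-receptors 4 lay below and 5 above. The type I receptor genes Acvr1b and Acvr1c were at -0.07 (95% interval -0.26 to 0.11) and 0.19 (0.01 to 0.36, limma adjusted p = 0.543), the type II receptor gene Acvr2a was at -0.03 (-0.19 to 0.14), and Tgfbr2 and the Cripto relative Cfc1 were at 0.20 and 0.21.

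None of the signal transducers was called. Smad2 was at -0.16 over both siRNAs (95% interval -0.34 to 0.01), Smad3 at 0.13 (-0.06 to 0.31), Smad4, their common partner, at -0.08 (-0.24 to 0.09), and Foxh1, the factor that takes Smads to Nodal targets, at 0.08 (-0.13 to 0.30); Smad2 and Smad4 were below control on all 4 knockdown arrays. The inhibitory Smad gene Smad6, which acts mainly on BMP signals, read 8.76 and 8.70 (log2) in control cells, 8.33 and 8.49 after siRNA 1, and 8.24 and 8.40 after siRNA 2. All 4 knockdown arrays were below control (-0.37, 95% interval -0.57 to -0.16, limma adjusted p = 0.269). Of 12 Smad partners and regulators none had an unadjusted p under 0.05 over both siRNAs; those of smallest p were Wwtr1 (0.15), Tgif1 (-0.12) and Tgif2 (0.10). With siRNA 1, 1 of the 12 did, Wwtr1 (0.21, limma adjusted p = 0.412). Pcsk6 and Pcsk5, proteases related to Furin, were at -0.26 and 0.05.

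Among other antagonists, Fstl1, a follistatin-like gene, was at -0.29 over both siRNAs (95% interval -0.47 to -0.12, limma adjusted p = 0.295) and Tmeff1, which can bind Cripto, at -0.34 (-0.56 to -0.13, 0.336), both below control on all 4 knockdown arrays. Dand5, a Nodal antagonist of the Cerberus family, was at 0.20.

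Of 11 measured target genes (of 14 listed), 7 lay above control over both siRNAs and 4 below. Otx2, a homeobox gene of the epiblast and anterior embryo, read 10.004 and 10.03 (log2) in control cells, 10.20 and 10.01 after siRNA 1, and 10.68 and 10.50 after siRNA 2. As for both Lefty genes, the siRNA 2 arrays lay above the other 4. Its log2 change was 0.57 with siRNA 2 (95% interval 0.33 to 0.82, limma adjusted p = 0.332) and 0.09 with siRNA 1, and it was 0.48 higher with siRNA 2 than with siRNA 1 (0.24 to 0.73, limma unadjusted p = 0.00225, adjusted p = 0.424). Pmepa1, another of the 11, picked out after its values were seen, went the other way with siRNA 2, below control without overlap. Its log2 change was -0.26 (95% interval -0.50 to -0.01, limma adjusted p = 0.937). With siRNA 2, 7 of the 11 lay above control and 4 below (median 0.06). The T-box gene Eomes, which is also among the trophoblast markers, was at 0.29 over both siRNAs (limma adjusted p = 0.401), and Wnt3 at -0.11.

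**Figure D3:**
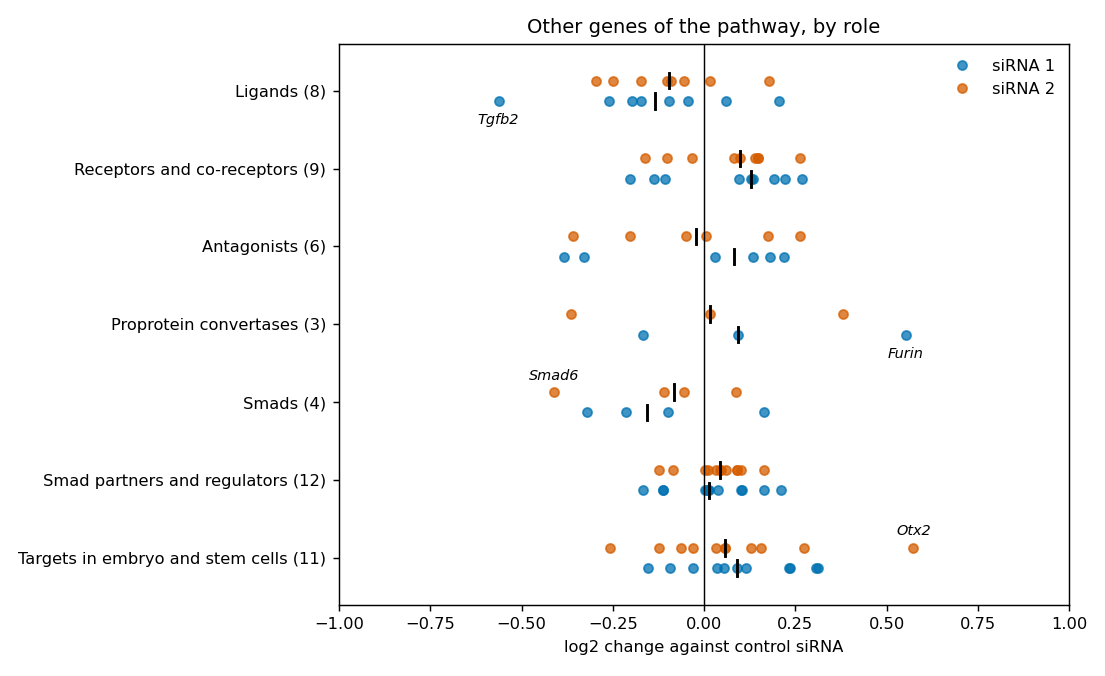
Log2 change against control siRNA of 53 other genes of the pathway, by role, with the number measured in parentheses; points are genes and black ticks the median of a role with either siRNA. Furin with siRNA 1 (0.55), Otx2 with siRNA 2 (0.57) and Tgfb2 with siRNA 1 (-0.56) lay farthest out.

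The 5 genes whose values followed those of Inhbb most closely were Necab1, H2-M5, Cobl, Jam2 and St8sia1. Likeness was the root mean square difference over the 6 arrays, after taking the mean of the control arrays from each gene, among 9661 named genes above the median gene level and outside the pathway. It was 0.106 (log2) for Necab1, which encodes a calcium-binding protein, 0.171 for H2-M5, of the class I major histocompatibility complex, 0.177 for Cobl, which encodes an actin nucleator, 0.188 for Jam2, which encodes a junctional adhesion molecule, and 0.232 for St8sia1, which encodes a sialyltransferase. Each of the 5 was lower on all 4 knockdown arrays than on both control arrays, and control replicate 1 read higher than control replicate 2 for all 5 and for Inhbb. Over both siRNAs the log2 change was -1.18 for Necab1, -1.01 for H2-M5, -0.995 for Cobl, -0.991 for Jam2 and -0.935 for St8sia1. These genes were picked for their likeness, so their values are a description.

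**Figure D4:**
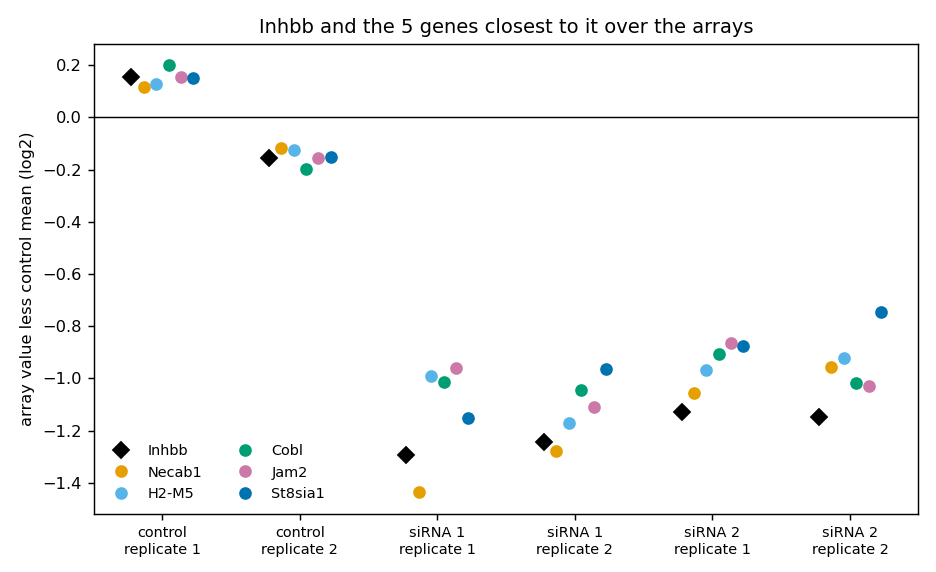
Values of Inhbb (diamonds) and of the 5 genes closest to it (circles) on the 6 arrays, less the mean of the control arrays of each gene (log2). Inhbb lay lowest of the 6 genes on both siRNA 2 arrays and Necab1 on both siRNA 1 arrays.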

How the data were processed

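RNA of 6 mouse embryonic stem cell samples was measured on expression arrays. Values were deposited as log2, as inferred from their range (2.69 to 14.6); another base would alter folds, not tests. Partek was used, per the submitters' processing notes; how it corrected, summarised and normalized the 35556 probe sets, and which version it was, is not given in the sources used here. Detection calls were not used, and the number of arrays limits the precision.

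Symbols were taken from the platform annotation in GEO, which gives 1 for 21789 probe sets and several, left unnamed, for 1621; it does not list 12146. The brightest probe set stood for each of the 999 genes that had several. The 3 groups entered 1 fit of 19938 genes (limma 3.58.1, R 4.3.3; eBayes with neither trend nor robust options; 3 residual and 3.84 prior degrees of freedom). Tests were two-sided, with Benjamini-Hochberg adjustment over all genes, and called means an adjusted p under 0.05. Intervals are 95% intervals of this fit. In data simulated without a replicate effect, the fit called 174 of 200 genes changed by 1 (log2), with 6 false calls. On the real arrays, those of equal replicate number deviated together, so these numbers need not hold for them. Coverage of the intervals was not checked.

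The members, the pathway list, the marker lists and the named genes were chosen with earlier results of these data known. Named genes are the members, Ncoa3, any pathway gene called, up to 3 of smallest p per role, 6 pathway genes in any case (Acvr1b, Acvr2a, Smad2, Smad3, Smad4 and Foxh1), and the 5 nearest to Inhbb, predicted and olfactory genes passed over. The fit has no replicate block. Arrays of equal replicate number deviated from their group means together, at correlations across genes of 0.464 (control with siRNA 1), 0.407 (control with siRNA 2) and 0.461 (siRNA 1 with siRNA 2), all over 0.1. On this basis, which comes from the data and not from the labels, equal numbers were treated as pairs in the replicate block alternative and in differences within replicates. The main fit, its intervals and its calls do not use the pairs. The numbering sets no more than the signs where a group has 2 arrays, and by array code the values were -0.464, 0.407 and -0.461. Alternatives were the choice of probe set, a filter at the median gene level, 3 normalizations, other test settings, blocks by replicate number and by array code, and each array left out.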

Additional observations from a re-analysis of the deposited data

Results flagged for a closer look

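Acvr2a, Tgfbr1 and Eng, 3 receptor genes of the pathway list, picked out after their values were seen, lay on opposite sides of control with the 2 siRNAs: both arrays of one siRNA were below both control arrays, and both arrays of the other were above them. Acvr2a was at -0.14 (log2) with siRNA 1 and 0.08 with siRNA 2, a difference of 0.22. Tgfbr1 was at -0.20 and 0.10, a difference of 0.30. Eng was at 0.13 and -0.10, a difference of -0.23. The difference itself was tested and did not pass for any of the 3 (limma adjusted p = 0.715, 0.635 and 0.696).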

How the results depend on the processing

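Of the 10 genes, 1 was called over both siRNAs and 1 with siRNA 1. Both counts became 0 when genes under the median gene level were left out (Inhbb, with a mean of 7.77, then has no value). They also became 0 when all probe sets were tested, in an unmoderated linear model, and with the lower against the higher array codes as a block. In these last settings 0 of all genes or probe sets were called, so nothing about the members is read from them. With siRNA 2 the count went from 0 to 2 (Inhbb and Lefty1) with the replicate block, which called 26 of all 19938 genes. It also went to 2 with trend and robust options, which called 17 of all genes. For the pathway list with siRNA 1 the count went from 0 to 2 with the replicate block (1.21% of all genes). The replicate block changed no other call among the members or the pathway list. With 1 array left out, a group of 1 array is assumed to vary like the others, and the call of Inhbb was not kept in every such fit. The median of the members then ranged from -0.13 to -0.056 over both siRNAs, from -0.14 to -0.032 with siRNA 1, from -0.12 to -0.054 with siRNA 2, and from 0.021 to 0.10 between the siRNAs. Inhba with siRNA 1 turned to -0.040 after quantile normalization and to -0.036 after cyclic loess, and Gdf3 between the siRNAs to -0.0016 after cyclic loess. With 1 array left out, values that changed sign ranged, with siRNA 1, from -0.16 to 0.25 for Inhba, -0.39 to 0.19 for Lefty2, -0.15 to 0.029 for Fst and -0.13 to 0.0026 for Smad7, and between the siRNAs from -0.17 to 0.066 for Nodal, -0.15 to 0.089 for Acvr2b, -0.011 to 0.13 for Tdgf1 and -0.0087 to 0.068 for Gdf3. The causes were not tested.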
